A study of Rattus norvegicus with 7 samples.

Results

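Interferon-stimulated genes are transcripts that cells switch on when an interferon reaches them. The 9 described here are Mx1, Mx2, Isg15, Irf7, Oas1a, Ifit2, Ifit3, Rsad2 and Usp18. Every probe set whose single gene symbol in the platform's annotation was one of these names was taken, which gave 9 genes of the 14217 named by a single-symbol probe set, and 11 probe sets of 31042 without the array controls. Mx2 and Ifit2 had a pair of probe sets each and the other genes had a single one. All 11 were among the 15521 probe sets tested.

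Lung RNA of Dahl salt-sensitive rats, which develop hypertension on a high-salt diet, was measured on Affymetrix expression arrays. The HSU_Sor group (4 arrays) had hypoxia at an inspired oxygen of about 9.5%, SU5416 and sorafenib, and the HSU group (3 arrays) had the same hypoxia and SU5416. Hypoxia and SU5416, an inhibitor of VEGF receptors, were thus common to all 7 arrays and together form a rat model of pulmonary hypertension. Sorafenib inhibits RAF kinases and several receptor tyrosine kinases. The rats weighed 250 to 350 g, and RNA was taken from lungs at 3.5 weeks. No source used here states the age of the rats, the doses or whether HSU rats had a vehicle in place of sorafenib. The right lung was used after its vessels were flushed with saline, so the RNA comes from all cell types of the lung together. The normoxia and hypoxia-only groups of the design were not analysed here.

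The type I interferons bind the receptor chains Ifnar1 and Ifnar2, and the kinases Jak1 and Tyk2 then pass the signal on. A complex that holds Stat2 and Irf9 binds the interferon-stimulated response element in promoters, while interferon gamma has its own receptor, Ifngr1 and Ifngr2, and acts at gamma-activated sites. The products block viral replication at many steps, and many cell types of the lung, epithelial, endothelial and immune, can make them.

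Promoters are shown as background, because the response element is a known control element of interferon-stimulated genes. Its part in the values on these arrays was not tested. The RefSeq promoter table (build GRCr8) held 5 of the 9 members, Mx1, Irf7, Oas1a, Ifit3 and Rsad2. Below are the 200 bases before the start site that the table uses, in the direction of the gene, with matches to the core of the response element, GAAA then any 2 bases then GAAA on either strand, in capitals.

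Irf7, chr1:205800024-205800223, minus strand: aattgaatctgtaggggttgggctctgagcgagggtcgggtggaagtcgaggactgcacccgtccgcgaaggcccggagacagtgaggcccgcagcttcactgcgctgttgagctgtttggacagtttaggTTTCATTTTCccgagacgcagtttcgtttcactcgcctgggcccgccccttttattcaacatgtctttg
Oas1a, chr12:41330266-41330465, plus strand: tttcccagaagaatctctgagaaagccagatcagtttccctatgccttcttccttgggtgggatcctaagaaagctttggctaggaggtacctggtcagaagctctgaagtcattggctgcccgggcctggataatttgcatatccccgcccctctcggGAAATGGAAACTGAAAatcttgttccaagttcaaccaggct
Ifit3, chr1:241527126-241527325, plus strand: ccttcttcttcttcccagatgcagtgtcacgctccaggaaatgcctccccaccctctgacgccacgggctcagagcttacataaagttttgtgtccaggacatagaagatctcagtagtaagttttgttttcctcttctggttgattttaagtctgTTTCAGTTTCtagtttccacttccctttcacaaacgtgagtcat
Rsad2, chr6:48788121-48788320, minus strand: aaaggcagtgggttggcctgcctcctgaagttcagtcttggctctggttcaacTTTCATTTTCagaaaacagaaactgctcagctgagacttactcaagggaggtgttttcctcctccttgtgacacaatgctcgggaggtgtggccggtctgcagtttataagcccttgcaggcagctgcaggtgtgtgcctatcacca
Mx1, chr11:50294607-50294806, minus strand: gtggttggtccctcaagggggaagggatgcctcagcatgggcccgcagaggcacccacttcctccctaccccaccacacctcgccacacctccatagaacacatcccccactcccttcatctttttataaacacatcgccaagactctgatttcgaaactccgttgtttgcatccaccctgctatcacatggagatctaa

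In the table's windows of 300 bases (250 before and 50 after the start), 4 of the 5 members held this core, against 3.92% of all 33469 promoters. The match of Irf7 lay at bases -69 to -60, that of Ifit3 at -44 to -35 and that of Rsad2 at -147 to -138, counted back from -1 just before the start, each on the strand opposite to the gene's. Oas1a held matches at -41 to -32 and at -35 to -26, which overlap and lie on the gene's own strand. Mx1 had none in this window. TTCNNNGAA, the core of the gamma-activated site and its own reverse complement, was in the window of 1 of the 5, Oas1a (-199 to -191, apart from the other matches), against 8.87% of all promoters. Of other interferon-stimulated genes in a wider list, 36 of the 63 in the table held the response element core. A match describes letters and does not show binding.

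Before the results, some features of the arrays need to be known. HSU 1b and 2b stood apart at some probe sets of the rat MHC genes: 6 of the 25 RT1 probe sets tested were at least 2 higher, on the log2 scale, on both than on any other array. The same share over all probe sets was not counted, so whether this was particular to the MHC genes is not known. One probe set of RT1-Bb was at 12.57 on both, against 3.55 to 3.72 on the other 5 arrays. The other probe set of RT1-Bb was high on all 7, with 13.17 on HSU 1b, 13.08 on HSU 2b and 13.43 to 14.06 elsewhere, so the low values of the first do not mean that the gene was off. All titles name the same strain, and whether the rats of HSU 1b and 2b had the same genetic background as the others was not tested. Cardiac muscle transcripts were also high on HSU 1b and 2b, with mean deviations of 2.16 and 1.36 over 5 markers, and erythroid transcripts were low on HSU_Sor 3 and 4 (-3.22 and -3.47 over 2 markers). Lung genes were high everywhere, with Sftpc, a surfactant gene of alveolar type II cells, between 15.39 and 15.54. The titles number the HSU arrays with a b and the HSU_Sor arrays without one, and if that letter marks a batch, the batch and sorafenib cannot be told apart. With 7 arrays in all, precision is limited by their number. The p-values measure the spread between these arrays, each taken to be from its own rat because the design gives group sizes in rats.

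All 9 genes had their highest value of the 7 arrays on the same array, HSU 3b. Values are log2 expression per probe set as deposited. A difference of 1 is a doubling, and no level is compared between genes. The mean deviation of the 9 genes from their 7-array mean, with the brighter probe set of each gene, was -0.20, -0.06, -0.24 and -0.57 on HSU_Sor 1 to 4, against -0.37, -0.16 and 1.62 in HSU (1b, 2b and 3b). On HSU 3b the single genes deviated by 1.03 to 2.27. In such whole-lung RNA, more cells of a type and more RNA per cell cannot be told apart. Of the 11 probe sets, 10 were highest on HSU 3b, where 16.1% of all probe sets tested were. HSU 3b was at least 1 above every other array for 7 of the 11, against 0.245% of all probe sets, and at least 0.5 above for 9, against 0.979%.

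Mx1, a dynamin-like GTPase that blocks viral replication, was at 9.87, 10.15, 9.87 and 9.56 on HSU_Sor 1 to 4, against 9.34, 10.05 and 12.46 on HSU 1b, 2b and 3b. HSU 3b alone was high, 4.96-fold above the next array, and the other HSU arrays lay within or below the range of the HSU_Sor arrays. The fitted difference, HSU_Sor minus HSU, was -0.75 ± 0.71 (SE; limma adjusted p = 0.888). Mx2, a related GTPase 1 annotated gene away on the same chromosome, was at 10.03, 10.32, 10.26 and 9.95 in HSU_Sor, against 10.32, 10.48 and 11.79 in HSU, by probe set 1387283_at. Again HSU 3b was highest, and HSU 1b and 2b lay at the top of the HSU_Sor range or just above it. The difference of -0.72 ± 0.36 had the smallest unadjusted p of the members (0.0862; limma adjusted p = 0.874). The other Mx2 probe set, 1369202_at, annotated with the same transcript, did not show the rise. It lay between 4.33 and 4.39 in HSU_Sor and between 4.35 and 4.41 in HSU, with HSU 3b at 4.35, and differed by -0.02 ± 0.04 (SE).

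Isg15 encodes a ubiquitin-like protein that is attached to other proteins during an interferon response. It was at 9.33, 9.82, 9.20 and 9.12 on HSU_Sor 1 to 4, against 9.20, 9.65 and 11.52 on HSU 1b, 2b and 3b. HSU 3b exceeded the next array, HSU_Sor 2, 3.25-fold. Usp18 encodes the protease that removes Isg15 and that also damps signalling at the interferon receptor. It was at 8.28, 8.29, 8.26 and 8.29 in HSU_Sor, against 8.27, 8.29 and 10.57 in HSU. Usp18 thus stood at the same value within 0.0361 on 6 arrays and was higher on HSU 3b, 4.84-fold by the deposited values. A range as narrow as this over those 6 arrays was found for 2.18% of all probe sets tested, where the median range was 0.40, so differences between those 6 arrays cannot be read for Usp18. Whether the normalization made this plateau was not tested, and if it did, the fold over it is not a measured one. The fitted differences were -0.76 ± 0.55 for Isg15 and -0.76 ± 0.56 for Usp18 (SE; limma adjusted p = 0.874 for both).

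Irf7, the transcription factor that amplifies interferon alpha production, was at 9.49, 9.68, 9.68 and 9.48 on HSU_Sor 1 to 4, against 9.60, 9.58 and 11.61 on HSU 1b, 2b and 3b. It followed the mean of the other 8 genes most closely of all members, at a root mean square distance of 0.149 over the 7 arrays. Without HSU 3b the groups were nearly level for Irf7, with a difference of -0.01 and a 95% confidence interval from -0.22 to 0.20, against -0.68 ± 0.50 (SE) with all 7 arrays. Oas1a, which makes the oligoadenylates that activate RNase L, was at 9.09, 9.14, 9.65 and 9.45 in HSU_Sor, against 9.36, 9.35 and 10.81 in HSU. Here HSU_Sor 3 and 4 lay above HSU_Sor 1 and 2, an order not seen in Irf7. Its difference was -0.51 ± 0.38 (SE; limma adjusted p = 0.874). Oas1a has close copies in the rat genome, so its probe set may not separate them. The probe set of its relative Oas1b was at 7.57 to 7.66 in HSU_Sor and 7.65 to 7.67 in HSU, with no rise on HSU 3b.

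**Figure D1:**
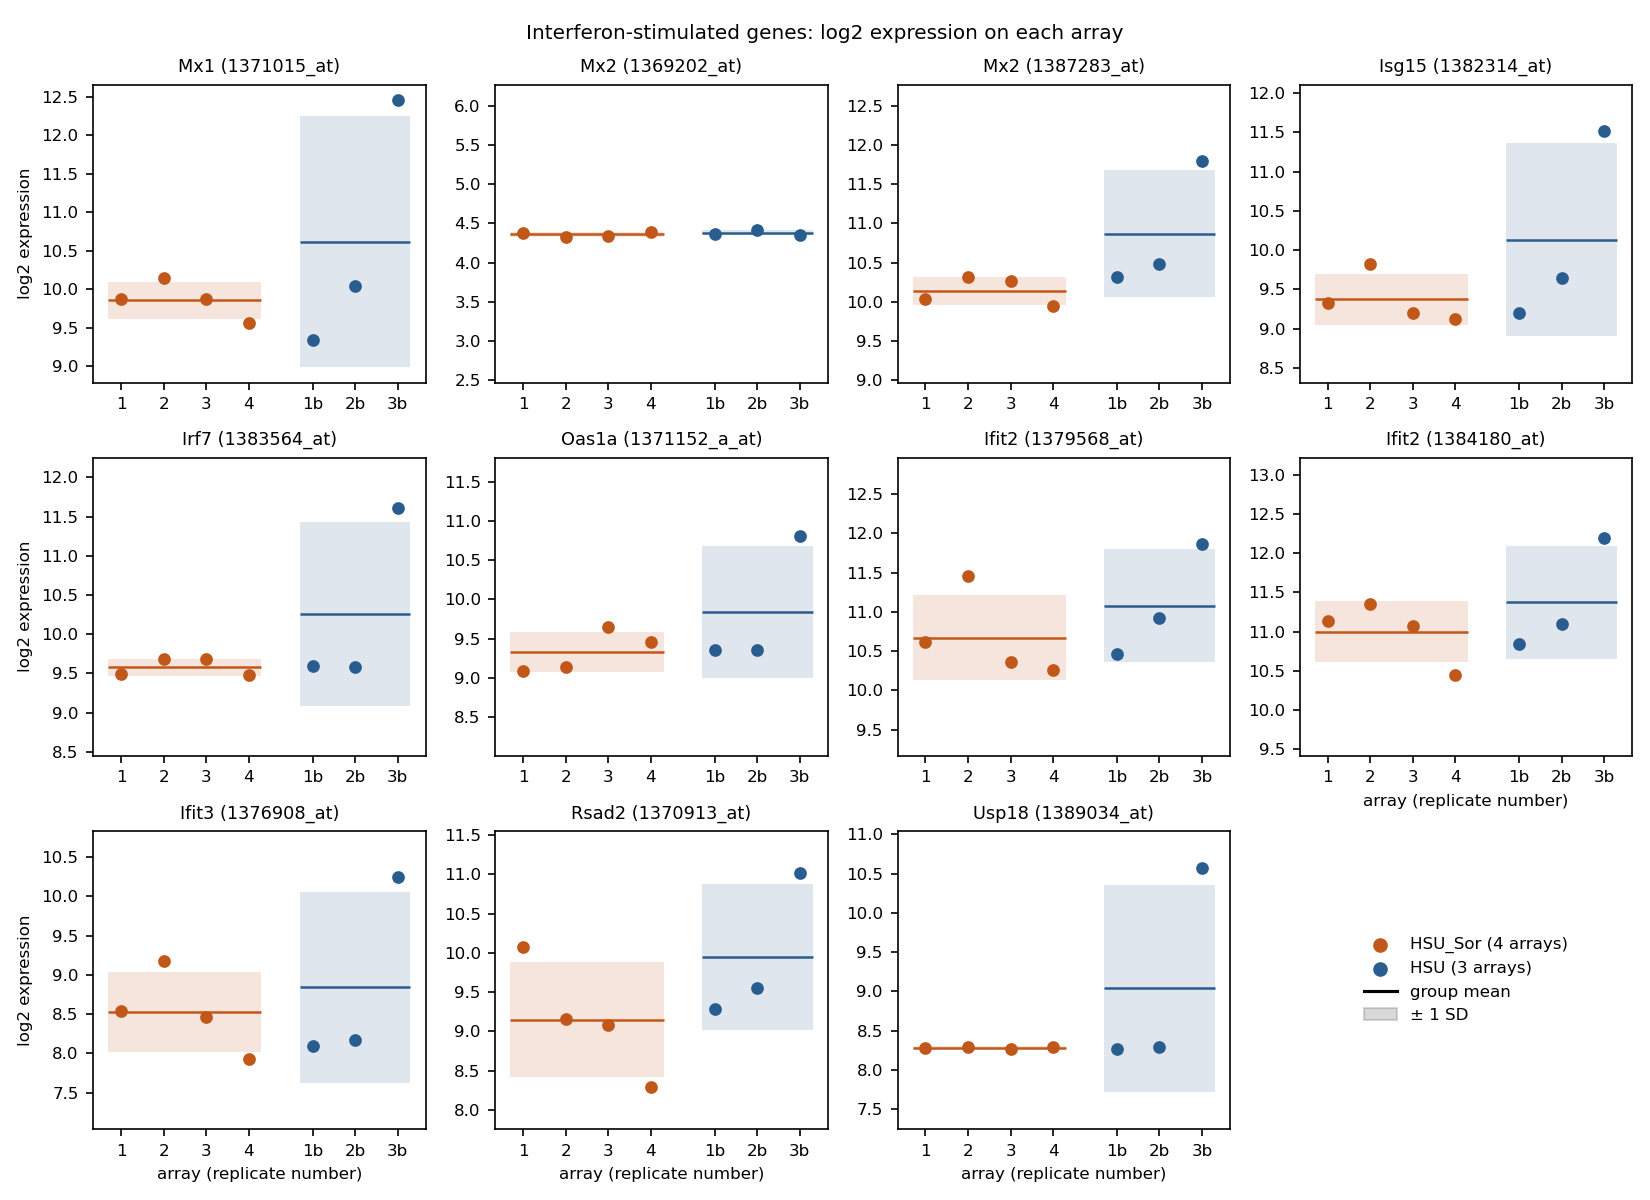
Log2 expression (vertical axis, each panel on its own scale) of the 11 probe sets on the 4 HSU_Sor arrays (orange, left) and the 3 HSU arrays (blue, right), with lines at the group means and bands of 1 SD. In 10 panels HSU 3b is the highest point, and in the panel of Mx2 probe set 1369202_at all points lie between 4.33 and 4.41.

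Ifit2 and Ifit3 are next to each other on rat chromosome 1 and encode proteins with tetratricopeptide repeats that bind viral RNA or partner proteins. Ifit2 was at 11.13, 11.35, 11.07 and 10.44 on HSU_Sor 1 to 4, against 10.84, 11.09 and 12.19 on HSU 1b, 2b and 3b, by probe set 1384180_at. By probe set 1379568_at it was at 10.61, 11.46, 10.36 and 10.26 in HSU_Sor, against 10.46, 10.92 and 11.87 in HSU. Both probe sets put HSU 3b highest and HSU_Sor 2 next, and by the second one the gap between them was 1.33-fold. The differences of the pair were -0.37 ± 0.37 and -0.41 ± 0.42 (SE). Ifit3 was at 8.54, 9.18, 8.46 and 7.93 in HSU_Sor, against 8.10, 8.17 and 10.25 in HSU. HSU_Sor 2 was second highest here too, and both other HSU arrays lay below 3 of the 4 HSU_Sor arrays. With all 7 arrays Ifit3 differed by -0.31 ± 0.59 (SE; limma adjusted p = 0.93). Rsad2 encodes viperin, an enzyme that makes a chain-terminating nucleotide against viral polymerases. It was at 10.07, 9.16, 9.08 and 8.29 in HSU_Sor, against 9.28, 9.55 and 11.02 in HSU. Rsad2 had the widest spread within HSU_Sor of all members, 1.78, and was farthest from the mean of the other 8 genes, at a distance of 0.464. Its neighbour Cmpk2, a nucleotide kinase of mitochondria, was at 9.40 to 9.68 in HSU_Sor and at 9.21, 9.80 and 10.20 in HSU.

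Apart from HSU 3b, the members varied less. From the mean of the other 6 arrays, the 9 genes deviated on average by 0.06, 0.20, 0.03 and -0.30 on HSU_Sor 1 to 4 and by -0.10 and 0.11 on HSU 1b and 2b. HSU_Sor 2 was the highest of these 6 arrays for 5 genes (16.8% of all probe sets tested). HSU_Sor 4 was the lowest of all 7 arrays for 6 genes, where 18% of all probe sets had it lowest. The SD over the 6 arrays ran between 0.01 for Usp18 and 0.59 for Rsad2.

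**Figure D2:**
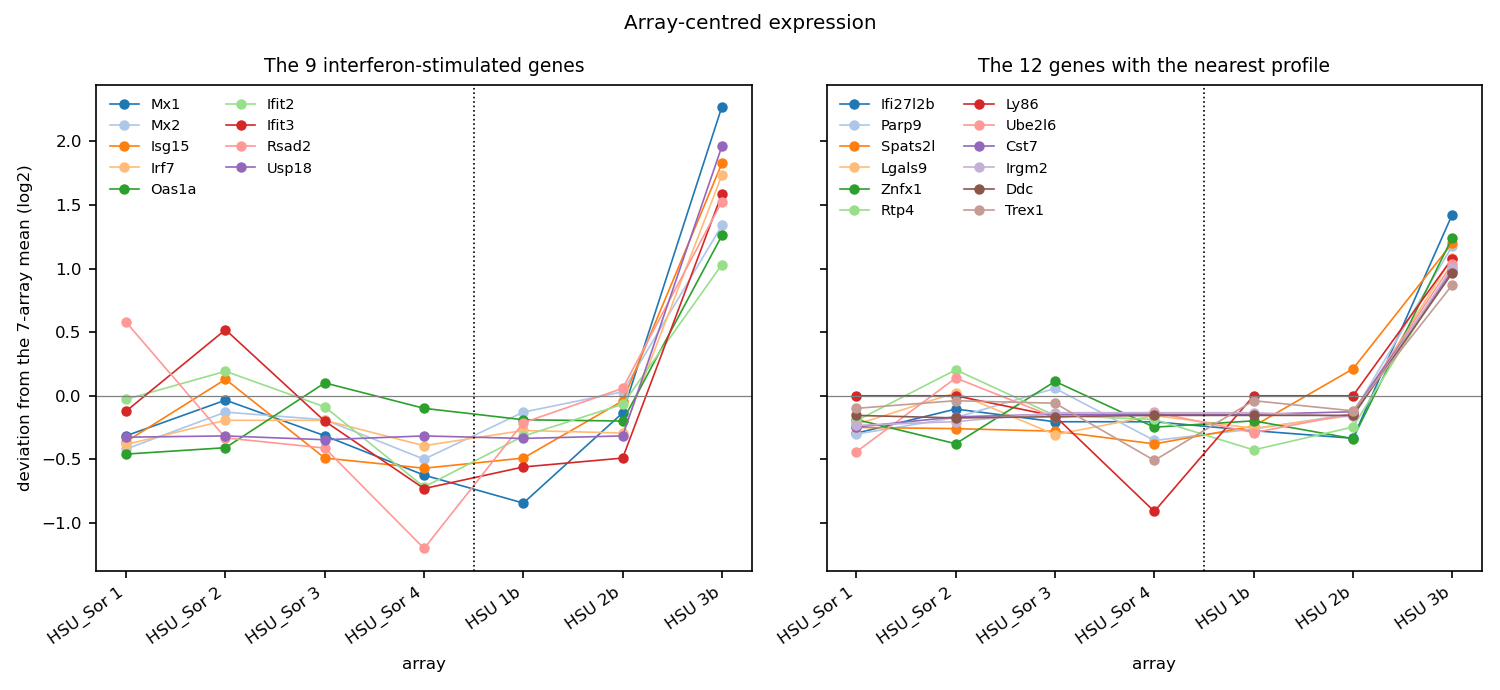
Deviation of each array from the 7-array mean (log2, vertical axis) for the 9 genes, each by its brighter probe set (left), and for the 12 genes with the nearest profile (right), with lines joining the points of a gene only as a guide. On HSU 3b the 9 genes lie between 1.03 and 2.27, and HSU_Sor 4 has the lowest value for 6 of them.

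Between HSU_Sor and HSU, which by the labels differ by sorafenib, and of which HSU 1b and 2b also stand apart at the MHC genes, none of the 11 probe sets passed. All 11 fitted differences were below 0, between -0.80 for Rsad2 and -0.02 for Mx2 probe set 1369202_at, with a median of -0.68 against -0.01 over all probe sets tested. The limma adjusted p ran from 0.874 to 0.933, and 0 of 11 had an unadjusted p below 0.05, where 3.67% of all probe sets were lower in HSU_Sor and 2.33% higher at that level. In no probe set were the groups apart: 0 of 11 had every HSU_Sor array below every HSU array, against 3.25% of all, and 0 had every one above, against 2.01%. Over all 15521 probe sets limma called 0 at an adjusted p below 0.05 (percent called 0), and 931 had an unadjusted p below 0.05.

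The size of these differences depended on HSU 3b. Without HSU 3b the median difference of the 11 probe sets was -0.02, with 8 below and 3 above 0 and 0 at an unadjusted p below 0.05 (2.29% of all probe sets lower and 2.2% higher). Over the array limma then called 6 probe sets at an adjusted p below 0.05 (0.0387%), none of them a member. Among the 6 were probe sets of RT1-Bb, RT1-CE5, RT1-Ba and RT1-T24-3 at which HSU 1b and 2b, then the whole HSU group, stood apart. In that fit, sorafenib and whatever set HSU 1b and 2b apart cannot be told apart. Ifit3 then differed by 0.39 ± 0.33 (SE), Mx1 by 0.17 ± 0.25, Isg15 by -0.06 ± 0.24 and Rsad2 by -0.27 ± 0.48. The widest of these intervals, that of Rsad2, ran from -1.47 to 0.93. Without HSU 1b and 2b, the arrays that stood apart at the MHC genes, HSU 3b alone stood for its group and was assumed to vary as HSU_Sor does. The median difference was then -1.73, and 9 of 11 were lower at an unadjusted p below 0.05 (5.35% of all). Of all probe sets, 0.0644% were called at an adjusted p below 0.05 and 0.058% were lower in HSU_Sor, with 1 member, Usp18, among them. This sets the array already seen to be highest against HSU_Sor, and the call of Usp18 rests on its narrow range there, so neither supports a difference between the groups.

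**Figure D3:**
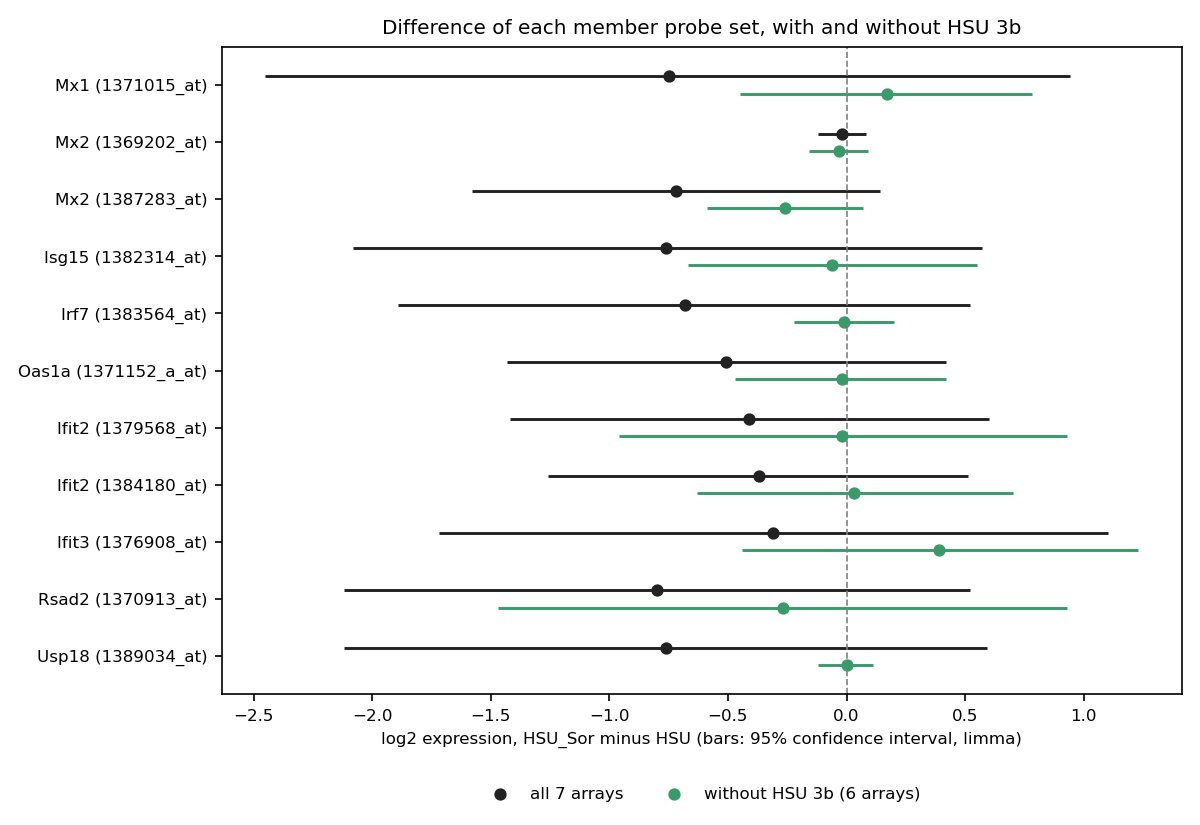
Fitted difference in log2 expression, HSU_Sor minus HSU (horizontal axis), of the 11 probe sets with all 7 arrays (black) and without HSU 3b (green), with 95% confidence intervals as bars. All black intervals include 0, and without HSU 3b the points move to between -0.27 and 0.39.

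The upstream part of the pathway was also on the array. The interferon genes Ifnb1, Ifng and Ifnk were at the floor on every array, with Ifnb1 at 2.04 to 2.08 in HSU_Sor and 2.06 to 2.10 in HSU. Of the 5 receptor chains tested, each by its brightest probe set, 1 was lower in HSU_Sor and 0 higher at an unadjusted p below 0.05 (3.67% and 2.33% of all probe sets). That was the interferon gamma receptor Ifngr1, at 11.99 to 12.12 in HSU_Sor and 12.13 to 12.23 in HSU (-0.13 ± 0.05, SE; limma adjusted p = 0.812). Ifnar1 by its brightest probe set was at 11.23 to 11.45 in HSU_Sor, against 11.30, 11.73 and 11.18 in HSU, where HSU 3b was the lowest of the 7. Ifnar2 differed by 0.08 ± 0.19 and Ifngr2 by -0.03 ± 0.05. None of the receptor chains had HSU 3b as much as 0.5 above the others.

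Of the 10 signal transduction genes tested, 0 passed an unadjusted p below 0.05 in either direction, and HSU 3b was the highest array for 5 (16.1% of all probe sets). Among these, Stat2 and Irf9, partners in the complex that binds the response element, were highest on HSU 3b in both of their probe sets, by 0.50 to 0.65 over the next array. The same excess ran from -0.06 to 2.31 over the member probe sets. Stat2 was at 9.07 to 9.44 in HSU_Sor and at 9.28, 9.25 and 9.97 in HSU. Irf9 was at 11.13 to 11.47 in HSU_Sor and at 11.32, 11.35 and 11.97 in HSU by its brighter probe set, and its dimmer one was also highest on HSU 3b (8.74). The kinases Jak1 and Tyk2 differed by -0.06 ± 0.08 and by -0.10 ± 0.22 (SE), and Irf1, a factor induced by interferon gamma, by -0.06 ± 0.14. Among sensors and adaptors, 1 of 7 was lower in HSU_Sor at an unadjusted p below 0.05 and 0 were higher, against 3.67% and 2.33% of all probe sets. Sting1, the adaptor for cytosolic DNA, was at 7.21 to 7.36 in HSU_Sor and at 7.58, 7.41 and 8.0 in HSU (-0.37 ± 0.14, SE; limma adjusted p = 0.812), the groups not overlapping, as in 3.25% of all probe sets. Without HSU 3b, Sting1 differed by -0.20 (limma unadjusted p = 0.0443, adjusted p = 0.98). In that fit 1 of the 7 was lower and 1 higher at an unadjusted p below 0.05 (2.29% and 2.2% of all probe sets). The RNA sensor Tlr7 stood 0.93 above every other array on HSU 3b and the helicase Dhx58 stood 0.58 above, while Ifih1 was at 4.45 there, inside the range of the other arrays. Of 6 negative regulators tested, 0 passed, and Ptpn11 differed by -0.20 ± 0.09 (SE).

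A wider list of interferon-stimulated genes showed the same high array. Of 45 tested, 40 were highest on HSU 3b (16.1% of all probe sets), 20 by at least 0.5 (0.979% of all) and 6 by at least 1 (0.245% of all). Their mean deviation was -0.15, -0.02, -0.08 and -0.13 on HSU_Sor 1 to 4, against -0.14, -0.16 and 0.69 in HSU (1b, 2b and 3b). Between the groups, 2 of 45 were lower in HSU_Sor at an unadjusted p below 0.05 and 0 higher, a share near that of all probe sets (3.67% and 2.33%), with a median difference of -0.19, and 0.04 without HSU 3b. The pair that were lower were Lap3 (-0.15 ± 0.06, SE) and the RNA-editing enzyme Adar (-0.41 ± 0.16), each with a limma adjusted p of 0.812. Without HSU 3b, 0 of the list were lower and 2 higher at that level (2.29% and 2.2% of all), and Adar differed by -0.25. Oasl, a relative of Oas1a, was at 4.52 to 4.77 in HSU_Sor and at 4.23, 4.29 and 7.66 in HSU. Eif2ak2, the kinase that halts translation on sensing double-stranded RNA, was at 10.26 to 10.50 in HSU_Sor and at 10.50, 10.50 and 10.94 in HSU. The guanylate-binding protein Gbp4 had the largest excess on HSU 3b in this list, at 3.45 to 4.81 in HSU_Sor and at 3.57, 3.89 and 8.31 in HSU. The chemokines Cxcl9 and Cxcl10 were below the filter, and Cxcl10 was at 2.34 to 2.40 in HSU_Sor and at 2.39, 2.41 and 2.99 in HSU. The Ifit1 probe set was below the filter, near the floor at 1.51 to 2.04 on the other arrays and at 1.54 on HSU 3b. It thus cannot show whether Ifit1 rose there as its relatives Ifit2 and Ifit3 did.

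**Figure D4:**
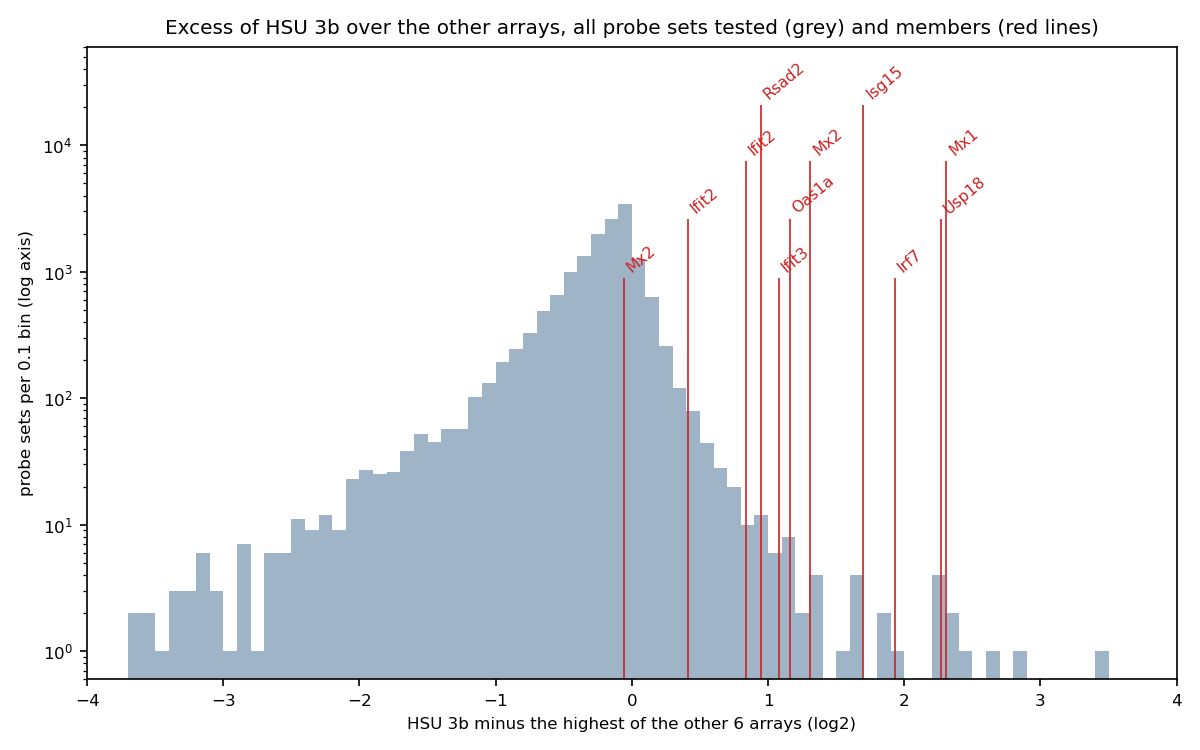
Histogram (log vertical axis) of HSU 3b minus the highest of the other 6 arrays for all 15521 probe sets tested, with the 11 member probe sets as red lines. Most probe sets lie below 0, and 7 of the 11 members lie beyond 1, where 0.245% of all probe sets do.

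The genes outside the 9 whose values lay nearest to the mean profile of the members, by root mean square distance over the 7 arrays among 9290 genes, were led by Ifi27l2b (0.178), Parp9 (0.229), Spats2l (0.241), Lgals9 (0.261) and Znfx1 (0.276). The median gene was at 0.681. Rtp4, Ly86, Ube2l6, Cst7, Irgm2, Ddc and Trex1 followed, up to 0.321. Of these 12 genes, 6 were in the wider list of interferon-stimulated genes, among them Ube2l6, the conjugating enzyme for Isg15. Trex1 is a DNA exonuclease, and Cst7 is an inhibitor of cysteine proteases found in cytotoxic lymphocytes. Ifi27l2b was at 12.41 to 12.60 in HSU_Sor and at 12.43, 12.37 and 14.13 in HSU.

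Genes of peptide loading and the immunoproteasome were raised less on HSU 3b, with a mean deviation of 0.37 there. Of the 9, 7 were highest on that array (16.1% of all probe sets), B2m by only 0.02. Of the 9, 1 was lower in HSU_Sor and 0 higher at an unadjusted p below 0.05 (3.67% and 2.33% of all probe sets). That was the proteasome subunit Psmb8, at 10.93 to 11.36 in HSU_Sor and at 11.36, 11.32 and 11.93 in HSU (-0.48 ± 0.18, SE; limma adjusted p = 0.812). Without HSU 3b, 0 of the 9 were lower and 1 higher at that level (2.29% and 2.2% of all), and Psmb8 differed by -0.29.

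Cytotoxic lymphocyte transcripts were also highest on HSU 3b. Of 12 T and NK cell markers, 9 were above the filter and 8 of these were highest there (16.1% of all probe sets), Cd3e by only 0.01. Their mean deviation was 0.39, -0.11, -0.05 and -0.35 on HSU_Sor 1 to 4, against -0.76, -0.19 and 1.08 in HSU (1b, 2b and 3b). The log2 of their summed level was 11.68 to 12.65 in HSU_Sor and 11.14 to 13.31 in HSU. Nkg7, a granule protein of cytotoxic cells, was at 4.42 to 5.35 in HSU_Sor and at 4.21, 4.76 and 7.80 in HSU, and the granzyme Gzma was at 9.23 to 10.74 in HSU_Sor and at 8.10, 9.47 and 11.73 in HSU. The T cell receptor component Cd3e was nearly level, at 7.41 to 7.56 in HSU_Sor and 7.53 to 7.58 in HSU, and Cd3d, Cd4 and Cd8b were at the floor on every array. The part of these cells in the level of the members was not tested. Of the other 6 arrays, HSU_Sor 4 and HSU 1b were the lowest in both the T and NK cell deviation and the mean deviation of the members, while the highest were HSU_Sor 1 for the markers and HSU_Sor 2 for the members.

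Macrophage markers deviated on average by -0.72 to 0.01 in HSU_Sor, against 0.71, -0.12 and 0.80 for HSU 1b, 2b and 3b. HSU 1b was thus about as high as HSU 3b, which was not so for the members. The 7 markers tested were mixed, 4 lower and 3 higher in HSU_Sor. The complement genes C1qa, C1qb and C1qc differed by -1.7, -2.69 and -1.68 and Adgre1 by -0.20. Cd68, Csf1r and Mrc1 differed by 0.39, 0.17 and 0.01, so the mean mostly follows the complement genes. Monocyte markers (2 above the filter) were at 0.66 and 0.83 on HSU 2b and 3b. The 3 measured markers of plasmacytoid dendritic cells, the main makers of interferon alpha, were at 0.25 on HSU 3b, where Bst2, itself induced by interferon, was the only one highest. Neutrophil markers were highest on HSU_Sor 3 (1.70) and B and plasma cell markers on the same array (0.84, by 1 gene). The cardiac markers were at -1.09 on HSU 3b and the erythroid ones at 1.47, within the range of the other arrays for both. Endothelial, alveolar type I, alveolar type II and airway markers stayed between -0.24 and 0.24 on every array, and on HSU 3b between -0.06 and 0.05.

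**Figure D5:**
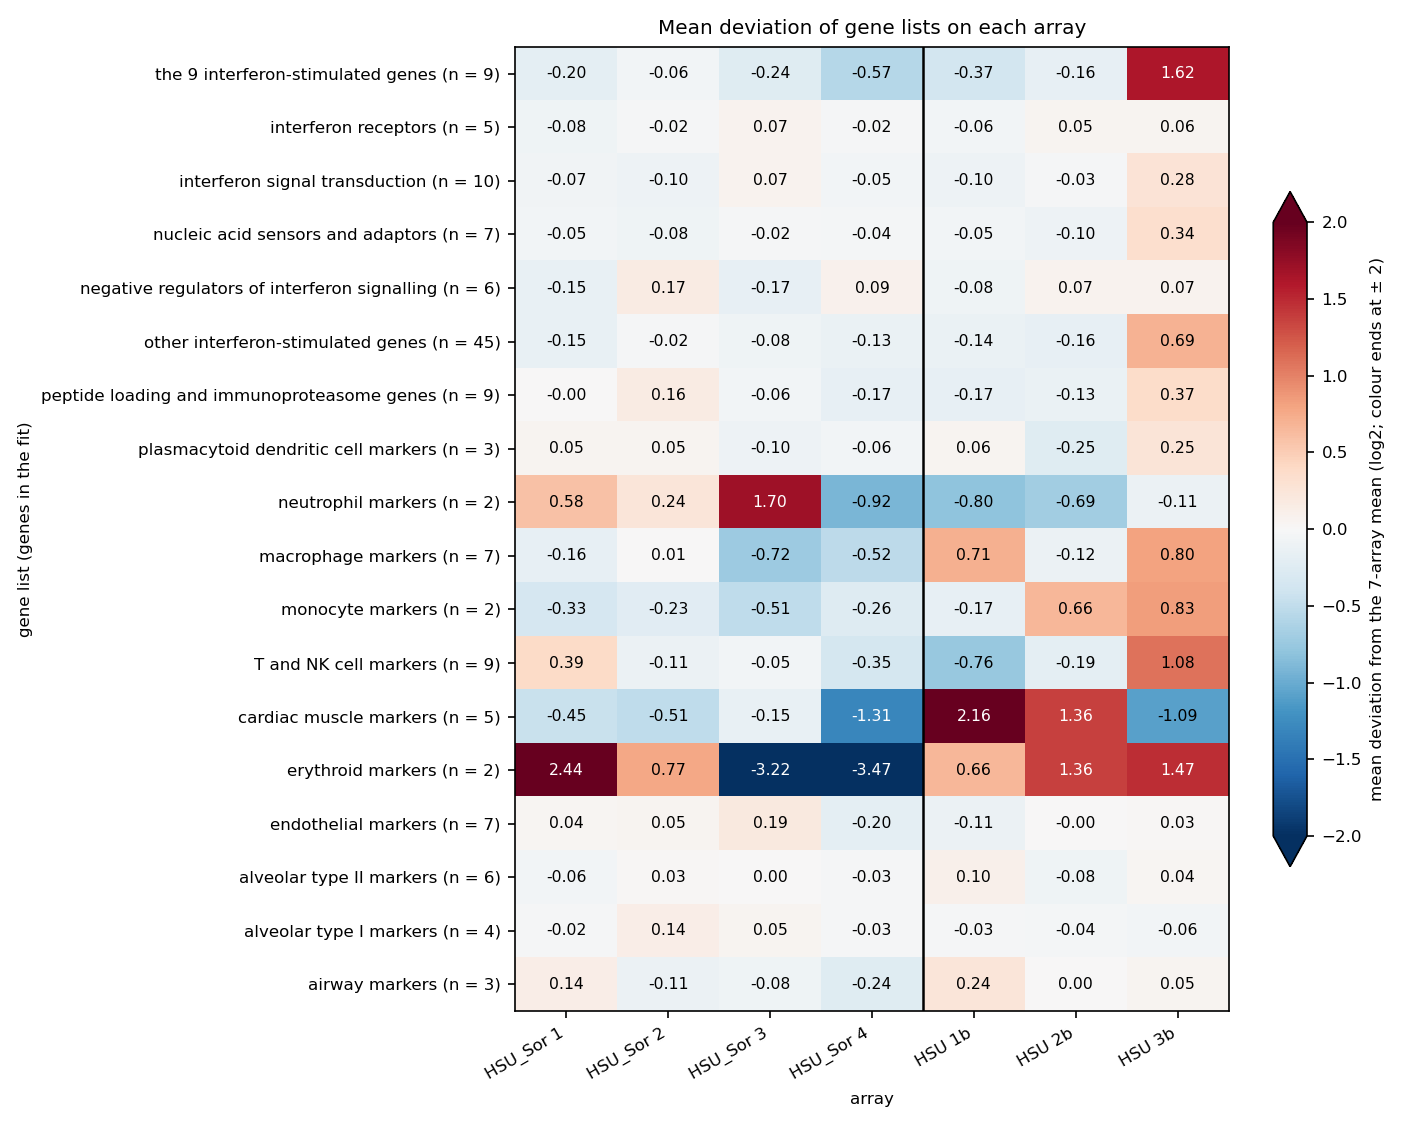
Mean deviation of each gene list (rows, with the number of genes tested) from its 7-array mean in log2 units (colour and printed value) on the HSU_Sor arrays (left) and the HSU arrays (right). The 9 genes reach 1.62 on HSU 3b and lie between -0.57 and -0.06 on the other 6 arrays.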

How the data were processed

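Total RNA of perfused right lungs was extracted with Trizol, labelled with biotin and hybridised to Affymetrix arrays, per the labels' protocols. The deposited values are log2 expression, 1 per probe set and array, normalized by the authors. The submitters' processing notes name RMA and GCRMA without saying which made these values. Values ran from 0.29 to 16.14, with array medians between 3.59 and 3.68, and dim probe sets sit at a floor that compresses differences.

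The 57 control probe sets were left out. Of the other 31042, the platform annotation gave 1 symbol to 20826, several to 436 and none to 9780. The comparison HSU_Sor minus HSU was fitted with limma (version 3.58.1, R version 4.3.3; lmFit, eBayes, two-sided, no covariate) on the 15521 probe sets with a mean above the median of all (3.64), with Benjamini-Hochberg adjustment over them and a threshold of 0.05. The fit was tested on simulated data. List genes stood by their brightest probe set. Besides the members, genes were named from each list by the smallest unadjusted p, by a fixed set of pathway genes, or as the 12 nearest in profile. Others, such as Gbp4, Cmpk2, Oas1b, Tlr7, Dhx58, Ptpn11 and the marker genes, were named after their values were seen. Lists covered the interferon pathway and marker genes of 12 cell types. The members and lists were chosen with earlier results of these data known. Whether the same replicate numbers pair the arrays is not known. Deviations of same-numbered arrays correlated at -0.059, 0.179 and 0.144, and differently numbered arrays were not compared, so these values cannot decide it.

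The fit was repeated without the filter and with one at the 75th percentile of the means, after quantile normalization or centring on medians, with array weights or a robust fit with an intensity trend, with 1 or averaged probe sets per gene, a replicate block, without each array in turn, and without HSU 1b and 2b.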

Additional observations from a re-analysis of the deposited data

How the results depend on the processing

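The count of 0 of 15521 probe sets past the adjusted threshold became 6 with a filter at the 75th percentile and 10 without HSU 1b and 2b, and lay between 0 and 6 with each array left out, 6 being without HSU 3b. The count of member probe sets at an unadjusted p below 0.05 was 9 without HSU 1b and 2b and between 0 and 1 with each array left out. Their median difference was -1.726 without HSU 1b and 2b and lay between -0.995 and -0.017 with each array left out, the latter without HSU 3b. Without HSU 3b the sign turned for Mx1 (range over the arrays left out -1.390 to 0.166), Ifit3 (-0.681 to 0.394) and Ifit2 probe set 1384180_at (-0.640 to 0.034). Mx2 probe set 1369202_at, near the floor, was at 0.005 without HSU 1b and 2b. These changes came with the arrays left out, and without HSU 1b and 2b the spread within groups also came from HSU_Sor alone. Their causes, and that of the change at the 75th percentile, were not tested. With the replicate number as a block the median was -0.545 with 0 calls, and whether the shared numbers pair the arrays is not known. The fit with averaged probe sets gives no value for single probe sets of Mx2 and Ifit2.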

Other observations

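Some genes were flat, or nearly so, on 6 arrays and raised on HSU 3b. Usp18 lay within 0.0361 on 6 arrays, and of 9779 probe sets with a mean above 8, 64 were as narrow over the same arrays. Usp18 alone of these was at least 0.5 higher on HSU 3b, against 0.979% of all probe sets tested. Its own range set the limit and its rise was already known, so this count does not single it out. Ifi44, another interferon-stimulated gene, was at 8.97, 8.97, 8.97 and 8.98 on HSU_Sor 1 to 4 and at 8.97, 8.81 and 9.73 in HSU, the last being HSU 3b. Ddc, the decarboxylase of dopamine and serotonin synthesis, was at 5.76 to 5.78 in HSU_Sor and at 5.78, 5.78 and 6.90 in HSU, although it is in none of the interferon lists. Spats2l was not flat in this way: at 4.12 to 4.25 in HSU_Sor, it was at 4.71 on HSU 2b and 5.70 on HSU 3b.

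The machinery around Isg15 was uneven on HSU 3b. The conjugating enzyme Ube2l6 was at 8.05 to 8.63 in HSU_Sor and at 8.20, 8.35 and 9.53 in HSU, and the ligase gene Herc6 was at 10.39 to 10.99 in HSU_Sor and at 10.57, 11.01 and 11.89 in HSU. The activating enzyme Uba7 was at 4.29 to 4.32 in HSU_Sor and at 4.31, 4.31 and 4.55 in HSU. The receptor inhibitor Socs1 was at the floor, at 2.63 to 2.69 in HSU_Sor and 2.66 to 2.69 in HSU. These genes were picked after their values were seen.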
